A study of Mus musculus with 5 samples.

Results

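The genes described here are the fibroblast growth factors (FGFs) of the mouse, their receptors, and the genes that FGF signalling switches on to restrain or relay itself. They were chosen by symbol from the deposited count table: every Fgf gene with a number, Fgfr1 to Fgfr4 and Fgfrl1, the Sprouty (Spry) and Spred genes, Etv1, Etv4, Etv5, Dusp6 and Il17rd. This gave 39 genes of the 27286 rows with a symbol of their own, and 28 of the 39 had enough counts to be tested among 13989 genes. The tissue was the forebrain at stage E12.5 of C57BL/6 littermates labelled untreated, with 3 EedcKO samples and 2 wild-type samples. The product of Eed is a subunit of PRC2, the Polycomb complex that places methyl groups on histone H3. The labels call the mutant EedcKO without saying which exons are deleted, which Cre line or other means deleted them, or whether every sample was a single embryo. The spread that enters each p-value may for that reason be technical in part.

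Most FGFs are secreted proteins that bind receptor tyrosine kinases on neighbouring cells with the help of heparan sulfate and activate the RAS to ERK cascade inside them. In the early forebrain, Fgf8 and its relatives are made at the anterior midline and pattern the telencephalon, and Fgf15 is made in ventral and medial progenitors and in the diencephalon. The ETS factors Etv1, Etv4 and Etv5 and the inhibitors of the Spry, Spred, Dusp6 and Il17rd group are transcribed in response to the signal, so they are commonly read as its output. The comparison asked which of these transcripts differ in forebrains of Eed mutants.

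Counts on named genes summed to between 4809259 and 4908319 in the EedcKO libraries, against 4922228 in wild type 1 and 4723794 counts in the library labelled wild type 2. The targeted gene went against 1 label. Eed had 251, 233 and 247 counts in EedcKO 1, 2 and 3, against 404 in wild type 1 and 238 counts in the library labelled wild type 2. Reads from exons that remain in the mutant also enter these counts, which makes this a partial check. Shh, picked after its values were seen, had 5, 1 and 3 counts in EedcKO, against 124 in wild type 1 and 103 counts in the library labelled wild type 2. The label itself was not tested. Markers of surface epithelium, summed over 10 genes, reached 25.6 to 40.0 CPM in EedcKO (CPM are counts scaled to a common library size), against 23.8 CPM in wild type 1 and 288 CPM in the library labelled wild type 2. Krt14, a keratin of the basal epidermis, had 3, 1 and 0 counts in EedcKO, against 0 in wild type 1 and 200 counts in the library labelled wild type 2. EedcKO 2 and 3 were male by their Y-linked counts, and the other libraries were female. Of the forebrain identity genes Lhx2, Six3 and Emx2, none was at 0 counts in any library.

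Of the 28 tested genes 1 passed the test, Fgf15, which fell in EedcKO. That is 3.57% of them, beside 3.20% of all tested genes past the same threshold (edgeR quasi-likelihood test, Benjamini-Hochberg adjusted p of 0.05 over all tested genes), so the share called was close to the background. None rose and 1 fell, where 1.04% of all tested genes rose and 2.17% fell. An unadjusted edgeR p under 0.05 was found for 7 of the 28, against 17.2% of all tested genes. The median log2 fold change, EedcKO over wild type, was -0.13 over the 28 genes and 0.01 over all tested genes. A log2 fold change of -1 or lower was seen in 5 of the 28 (17.9%), all of them FGF genes, against 3.90% of all tested genes. One of the 5, Fgf20, passed the count filter through the wild-type libraries alone, so its low value is partly set by the filter and the count supports nothing about the set. The groups did not overlap in 9 of the 28 (7 with EedcKO lower, 2 with EedcKO higher), or 32.1%, against 33.8% of all tested genes (17.4% lower and 16.4% higher). By role, fold changes were below 0 for 7 of 8 tested paracrine ligands and above 0 for all 4 tested receptor genes, with no receptor past the threshold. Fold changes lay on both sides of 0 for the ETS factors and the feedback inhibitors, where none of 11 passed. The 7 ligands include Fgf20, and signs in sets this small support nothing about a role. DESeq2, limma-voom and edgeR scaled to library size alone each put 3 of the 28 past the threshold (Fgf3, Fgf14 and Fgf15), beside 4.85%, 3.09% and 4.80% of all genes in those fits. Without a count filter 2 of 36 passed, Fgf3 and Fgf15, beside 3.36% of all genes. With 1 library left out, and 28 or 29 of the genes tested, 2 passed without EedcKO 1 (1.89% of all genes), 1 without EedcKO 2 (0.606%), 0 without EedcKO 3 (0% of all genes), 1 without wild type 1 (7.02%) and 2 without the library labelled wild type 2 (6.20%).

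**Figure D1:**
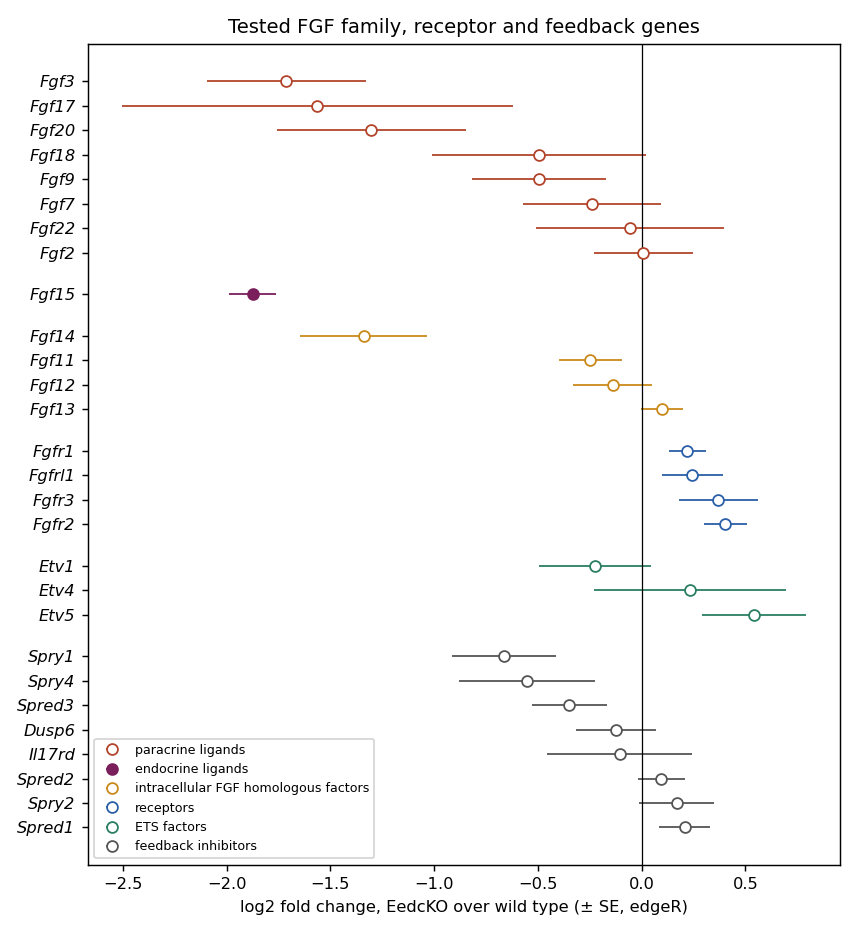
Log2 fold changes, EedcKO over wild type, with standard errors from edgeR, for the 28 tested genes ordered by role, with filled points past the adjusted threshold and open points not. Fgf15 at -1.87 is the filled point, the other 4 values below -1 are Fgf3, Fgf17, Fgf20 and Fgf14, and the receptors lie between 0.22 and 0.40.

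Fgf15 is the mouse counterpart of human FGF19, a hormone-like member of the family that is also made in the embryonic brain. It lies on chromosome 7 (144896531 to 144900953, plus strand, mm10). Fgf15 had 94, 87 and 92 counts in EedcKO 1, 2 and 3, against 316 in wild type 1 and 352 counts in the library labelled wild type 2. Scaled to library size these were 19.6, 18.0 and 18.8 CPM in EedcKO, against 66.5 and 71.4 CPM in wild type. The EedcKO libraries lay close together and far below both wild-type libraries, so the groups did not overlap. The means were 18.8 ± 0.813 CPM (SD, n = 3) in EedcKO and 68.9 ± 3.49 CPM (SD, n = 2) in wild type. The log2 fold change was -1.87 (SE 0.11, edgeR adjusted p = 0.00359), a level 3.67-fold lower in EedcKO. When the library labelled wild type 2 was dropped because of its Eed count, it was -1.81 (edgeR adjusted p = 0.000832), and without wild type 1 it was -1.94. The call ended without EedcKO 3, where no gene of the whole table passed and Fgf15 kept a log2 fold change of -1.88 (edgeR adjusted p = 0.0782). It also ended with embryo sex as a covariate (edgeR adjusted p = 0.135), a fit that sets EedcKO 1 alone against wild type. Over 16 alternatives the log2 fold change of Fgf15 ran from -1.94 to -1.81 and its adjusted p from 2.48e-17 to 0.135. In whole tissue, fewer cells of a type and less RNA per cell cannot be told apart. The exons of Fgf15 share 761 of 3058 bases with Gm26793 on the opposite strand, and since it is not known whether counting used strand, reads of the pair cannot be told apart there.

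In TPM, a unit that corrects for transcript length, Fgf15 was second among the 39 genes in wild type, behind Fgfr3, and 14th in EedcKO. Its level was 29.8 ± 1.46 TPM (SD, n = 3) in EedcKO against 109 ± 6.26 TPM (SD, n = 2) in wild type. All 18 secreted FGFs together summed to 123, 87.8 and 86.8 TPM in EedcKO 1, 2 and 3, against 250.3 TPM in wild type 1 and 246 TPM in the library labelled wild type 2. Every EedcKO library thus held a lower ligand sum than either wild-type library. Fgf15 made up 25.4%, 32.4% and 34.1% of that sum in EedcKO, against 41.6% and 46.1% in wild type.

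**Figure D2:**
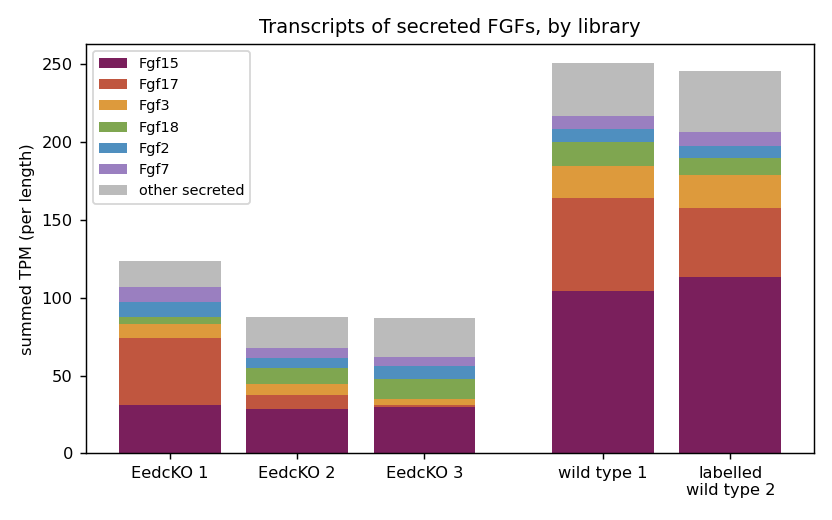
Summed TPM of the secreted FGFs in each library, stacked by gene. The EedcKO bars reach 86.8 to 123 TPM and the wild-type bars 246 and 250.3 TPM, and Fgf17 is a large part of the EedcKO 1 bar but not of the EedcKO 2 and 3 bars.

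Fgf8, Fgf17 and Fgf18 form the subfamily best known for patterning the anterior telencephalon. Fgf8 had 1, 3 and 2 counts in EedcKO 1, 2 and 3, against 13 in wild type 1 and 9 counts in the library labelled wild type 2. Every EedcKO library was at or below 3 counts, as many as a count of 0 leaves possible, and Fgf8 was too low for the test. Summed over libraries and scaled to their sizes, Fgf8 in EedcKO was at a ratio to wild type of 0.182 (95% exact counting interval 0.0603 to 0.462, which leaves out the spread between libraries). With a lower filter, at least 1 CPM in at least 2 libraries, which Fgf8 met through the wild-type libraries alone, the log2 fold change was -2.39 (edgeR adjusted p = 0.0832), and in the 6 alternatives that kept the gene the adjusted p ran from 0.0775 to 0.0934. Fgf18 had 5, 12 and 16 counts in EedcKO, against 18 and 13 in wild type, and its groups overlapped.

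Fgf17, which patterns the dorsomedial frontal cortex, varied widely among the EedcKO libraries. It had 71, 15 and 3 counts in EedcKO 1, 2 and 3, against 100 in wild type 1 and 76 counts in the library labelled wild type 2. EedcKO 1 was thus next to the wild-type libraries, while EedcKO 3 was at the limit that a count of 0 allows. The means were 6.17 ± 7.57 CPM (SD, n = 3) in EedcKO and 18.2 ± 3.97 CPM (SD, n = 2) in wild type. The log2 fold change was -1.56 (SE 0.94, edgeR adjusted p = 0.486) and did not pass the threshold. Without EedcKO 1 it was -3.29 (edgeR adjusted p = 0.0607), without EedcKO 3 it was -1.03, and without the library labelled wild type 2 it was -1.76. With embryo sex as a covariate it was -0.30, and over all alternatives it ran from -3.29 to -0.30 with an adjusted p from 0.0607 to 0.892. Nkx2-1, a transcription factor of the medial ventral telencephalon and hypothalamus, had the same order over the EedcKO libraries, with 331, 7 and 6 counts, against 863 and 724 in wild type. Fgf14 and Spry1 had this order too, so it was not particular to Nkx2-1, and its share over all genes was not counted. The part of Nkx2-1 in the Fgf17 values was not tested. EedcKO 1 is also the female EedcKO library, and a difference of sex and a difference of that library cannot be told apart here.

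Fgf3 and Fgf20 were the other paracrine ligands with a log2 fold change below -1. Fgf3, a ligand of the inner ear, hypothalamus and anterior neural midline, had 20, 17 and 8 counts in EedcKO 1, 2 and 3, against 48 in wild type 1 and 51 counts in the library labelled wild type 2. No EedcKO library reached the wild-type range. Its mean was 3.10 ± 1.31 CPM (SD, n = 3) in EedcKO and 10.2 ± 0.176 CPM (SD, n = 2) in wild type, so that the log2 fold change was -1.71 (SE 0.38, edgeR adjusted p = 0.0600), just short of the threshold. DESeq2 put it past (adjusted p = 0.0245), as did limma-voom, scaling to library size alone and leaving out the count filter, and over all alternatives the adjusted p ran from 0.0245 to 0.445. Without the library labelled wild type 2 the log2 fold change of Fgf3 was -1.69. Fgf20, a relative of Fgf9, had 4, 8 and 6 counts in EedcKO, against 13 and 17 in wild type. These groups did not overlap either, and the log2 fold change was -1.30 (SE 0.46, edgeR adjusted p = 0.189). The exons of Fgf20 share 202 of 1678 bases with Micu3 on the opposite strand. Without strand, the reads of the pair cannot be told apart there. Micu3 had 469 counts summed over the 3 EedcKO libraries and 366 summed over the 2 wild-type libraries. Without the library labelled wild type 2 the log2 fold change of Fgf20 was -1.12.

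**Figure D3:**
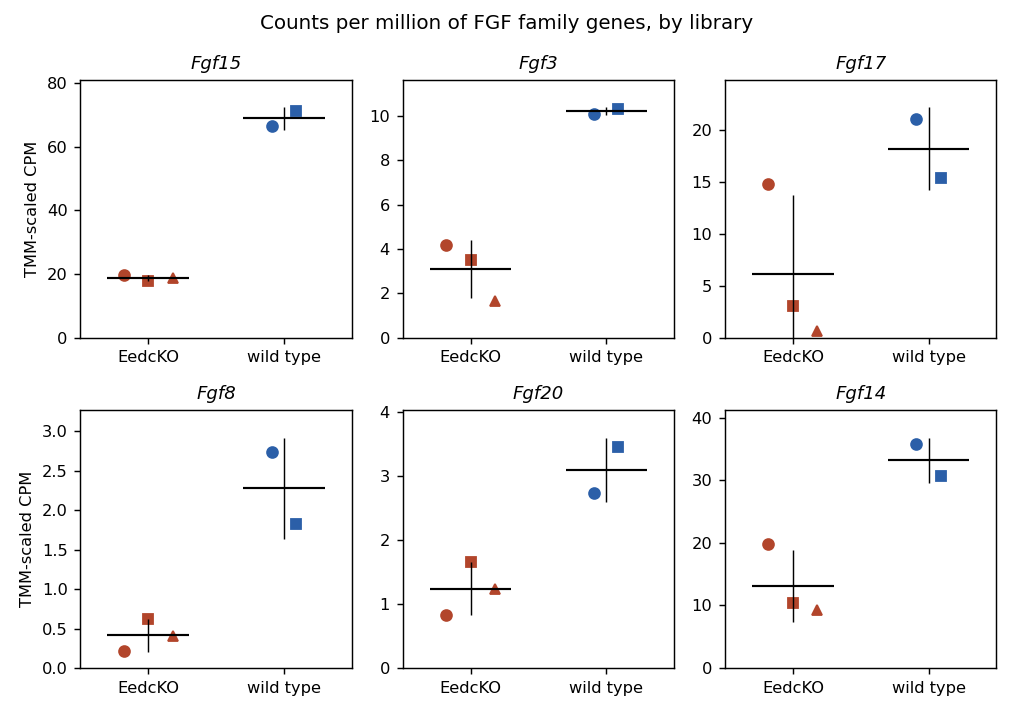
TMM-scaled CPM of 6 FGF family genes in each library, EedcKO left and wild type right, with circles, squares and triangles for replicates 1, 2 and 3 (the wild-type square is the library labelled wild type 2), bars at the mean and lines of 1 SD. EedcKO libraries lie below both wild-type libraries in every panel, closest for Fgf17, where EedcKO 1 has 14.8 CPM against 15.4 CPM in the library labelled wild type 2.

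The remaining ligands were low, and none passed the test. Fgf9, a ligand of neurons and progenitors, had 21, 18 and 29 counts in EedcKO, against 28 and 36 in wild type (log2 fold change -0.49, edgeR adjusted p = 0.511). Fgf2, which keeps neural progenitors dividing in culture, had 64, 44 and 55 counts in EedcKO, against 54 and 54 in wild type (log2 fold change 0.01). Fgf7 and Fgf22, ligands of the Fgf7 subfamily, had log2 fold changes of -0.24 and -0.05. Below the count filter, Fgf5 and Fgf10 had 2 to 8 counts in EedcKO libraries and 4 to 9 in wild type. Fgf1, Fgf6, Fgf16 and Fgf23 had at most 2 counts in any library, and no fold is given for them. Fgf4, Fgf21 and Spry3 had no count in any library, which allows up to 3 counts, or 0.614 to 0.625 CPM in EedcKO libraries and 0.609 to 0.631 CPM in wild type.

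The FGF homologous factors Fgf11 to Fgf14 are not secreted and bind voltage-gated sodium channels in neurons. Fgf14 had 95, 50 and 45 counts in EedcKO 1, 2 and 3, against 170 in wild type 1 and 151 counts in the library labelled wild type 2. All EedcKO libraries were lower than both wild-type libraries, and EedcKO 1 was nearest to them. The means were 13.1 ± 5.82 CPM (SD, n = 3) in EedcKO and 33.2 ± 3.63 CPM (SD, n = 2) in wild type (log2 fold change -1.34, SE 0.31, edgeR adjusted p = 0.0666). Without EedcKO 1 the log2 fold change was -1.77 and passed (edgeR adjusted p = 0.0173), and over all alternatives the adjusted p ran from 0.00613 to 0.331. DESeq2, limma-voom and scaling to library size alone also put Fgf14 past the threshold, and without the library labelled wild type 2 its log2 fold change was -1.44. With embryo sex as a covariate it was -0.74. Fgf13, the X-linked member and the most abundant of the 4 per length, had 381, 445 and 424 counts in EedcKO, against 396 and 382 in wild type, and the groups overlapped (log2 fold change 0.10, SE 0.10). Fgf11 and Fgf12 had log2 fold changes of -0.25 and -0.14 (edgeR adjusted p = 0.480 and 0.786).

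The 4 tested receptor genes had log2 fold changes above 0, none past the threshold, and Fgfr3 had the highest level of all 39 genes per length in both groups. Fgfr3, which is graded across the cortical primordium, had 1049, 1480 and 1183 counts in EedcKO 1, 2 and 3, against 775 in wild type 1 and 1145 counts in the library labelled wild type 2. EedcKO 1 was below the library labelled wild type 2 once scaled, so the groups overlapped (log2 fold change 0.37, SE 0.19, edgeR adjusted p = 0.388). Fgfr2, a receptor of radial glia, had 706, 813 and 760 counts in EedcKO, against 523 and 627 in wild type. Here every EedcKO library was above both wild-type libraries, with means of 157 ± 10.4 CPM (SD, n = 3) in EedcKO and 119 ± 12.1 CPM (SD, n = 2) in wild type (log2 fold change 0.40, SE 0.10, edgeR adjusted p = 0.0891). When the library labelled wild type 2 was dropped because of its Eed count, Fgfr2 passed (log2 fold change 0.52, edgeR adjusted p = 0.0338), and over all alternatives its adjusted p ran from 0.0338 to 0.473. In the same fit Fgfr3 had a log2 fold change of 0.65, against 0.12 without wild type 1, so its size depended on which wild-type library was used. The exons of Fgfr3 share 13.9% of their bases with G630022F23Rik on the opposite strand, and those of Fgfr2 share 3.04% with Ctbp2 on the same strand.

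Fgfr1, a receptor needed for the formation of the midline commissures, had 1037, 1119 and 1196 counts in EedcKO, against 953 and 963 in wild type. The groups did not overlap, and the log2 fold change was 0.22 (SE 0.09, edgeR adjusted p = 0.273). Fgfrl1, a receptor-like protein without a kinase domain, had 157, 174 and 198 counts in EedcKO, against 159 and 138 in wild type, and the groups overlapped (log2 fold change 0.24, edgeR adjusted p = 0.471). Fgfr4 was low, with 8, 9 and 9 counts in EedcKO, against 4 in wild type 1 and 16 counts in the library labelled wild type 2. The 4 kinase receptors together summed to 329, 401 and 357 TPM in EedcKO, against 259 and 317 TPM in wild type, so no EedcKO library had a lower receptor sum than a wild-type one. Fgfr3 held 45.5% to 51.5% of that sum in EedcKO and 42.2% to 49.6% in wild type. By mean TPM the order in both groups was Fgfr3, Fgfr1, Fgfr2 and Fgfr4, with Fgfr3 at 173 ± 30.0 TPM (SD, n = 3) and Fgfr1 at 113 ± 6.11 TPM in EedcKO, against 133 ± 33.9 TPM (SD, n = 2) and 96.6 ± 1.08 TPM in wild type. The ranges of Fgfr3 and Fgfr1 over libraries did not overlap in either group.

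Sprouty proteins block the path from receptor to RAS, and Spred proteins act on RAS and RAF together with neurofibromin. Spry1 had 168, 112 and 88 counts in EedcKO 1, 2 and 3, against 201 in wild type 1 and 188 counts in the library labelled wild type 2. The EedcKO libraries were all lower, and EedcKO 1 was nearest to wild type. The log2 fold change was -0.66 (SE 0.25, edgeR adjusted p = 0.229), or -0.97 without EedcKO 1 (edgeR adjusted p = 0.0607, the lowest of a range over alternatives up to 0.775). The exons of Spry1 share 710 of 2906 bases with Gm42922 on the opposite strand, so part of its counts cannot be told apart from that gene. Spry2 had 102, 128 and 140 counts in EedcKO, against 118 and 101 in wild type, so its order over the EedcKO libraries was the opposite of that of Spry1. As a share of the Spry transcripts per length, Spry1 made up 51.5%, 36.9% and 28.5% in EedcKO 1, 2 and 3, against 51.3% and 52.7% in wild type. Spry4 had 27, 22 and 42 counts in EedcKO, against 43 and 46 in wild type (log2 fold change -0.55, edgeR adjusted p = 0.458). The Spred genes differed by 0.35 or less on the log2 scale, with edgeR adjusted p = 0.384 for Spred3, the closest to the threshold. Spred1, the most abundant of them, had 772, 676 and 662 counts in EedcKO, against 662 and 555 in wild type.

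The genes most often read as FGF output showed no shared direction between the groups. Etv5 had 185, 121 and 178 counts in EedcKO 1, 2 and 3, against 133 in wild type 1 and 88 counts in the library labelled wild type 2 (log2 fold change 0.54, SE 0.25, edgeR adjusted p = 0.328). Etv4 had 75, 23 and 59 counts in EedcKO, against 51 and 38 in wild type. Etv1, which is also made by some deep-layer cortical neurons, had 266, 152 and 266 counts in EedcKO, against 313 and 219 in wild type. In all 3 ETS genes the groups overlapped. Dusp6, a phosphatase of ERK, had 186, 123 and 152 counts in EedcKO, against 180 and 155 in wild type (log2 fold change -0.13, SE 0.19). Il17rd, also called Sef, an inhibitor at the membrane, had 360, 175 and 245 counts in EedcKO, against 350 and 208 in wild type (log2 fold change -0.11, SE 0.35). Within the groups these 5 genes had the same order of libraries, which was noticed after their values were seen. Each was lowest in EedcKO 2 among the EedcKO libraries and lower in the library labelled wild type 2 than in wild type 1. In EedcKO 2 the level was between 0.343 (Etv4) and 0.727 (Dusp6) of the mean of EedcKO 1 and 3, and it was between 0.573 (Il17rd) and 0.830 (Dusp6) of the wild type 1 level in the library labelled wild type 2. Of the Spry and Spred genes, Spred2 and Spred3 had the same order, and Spry1, Spry2, Spry4 and Spred1 did not, so that it was not particular to the 5. Over all 13989 tested genes, 14.0% had this order. The summed markers of cortical hem and choroid plexus, with 10 of 10 listed genes in the table, were highest in those libraries within each group, at 160, 257 and 51.3 CPM in EedcKO 1, 2 and 3, against 183 CPM in wild type 1 and 618 CPM in the library labelled wild type 2. Ttr, the defining gene of choroid plexus, had 102, 291 and 0 counts in EedcKO, against 147 and 579 counts in wild type. The part of that tissue in the values of the 5 genes was not tested.

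**Figure D4:**
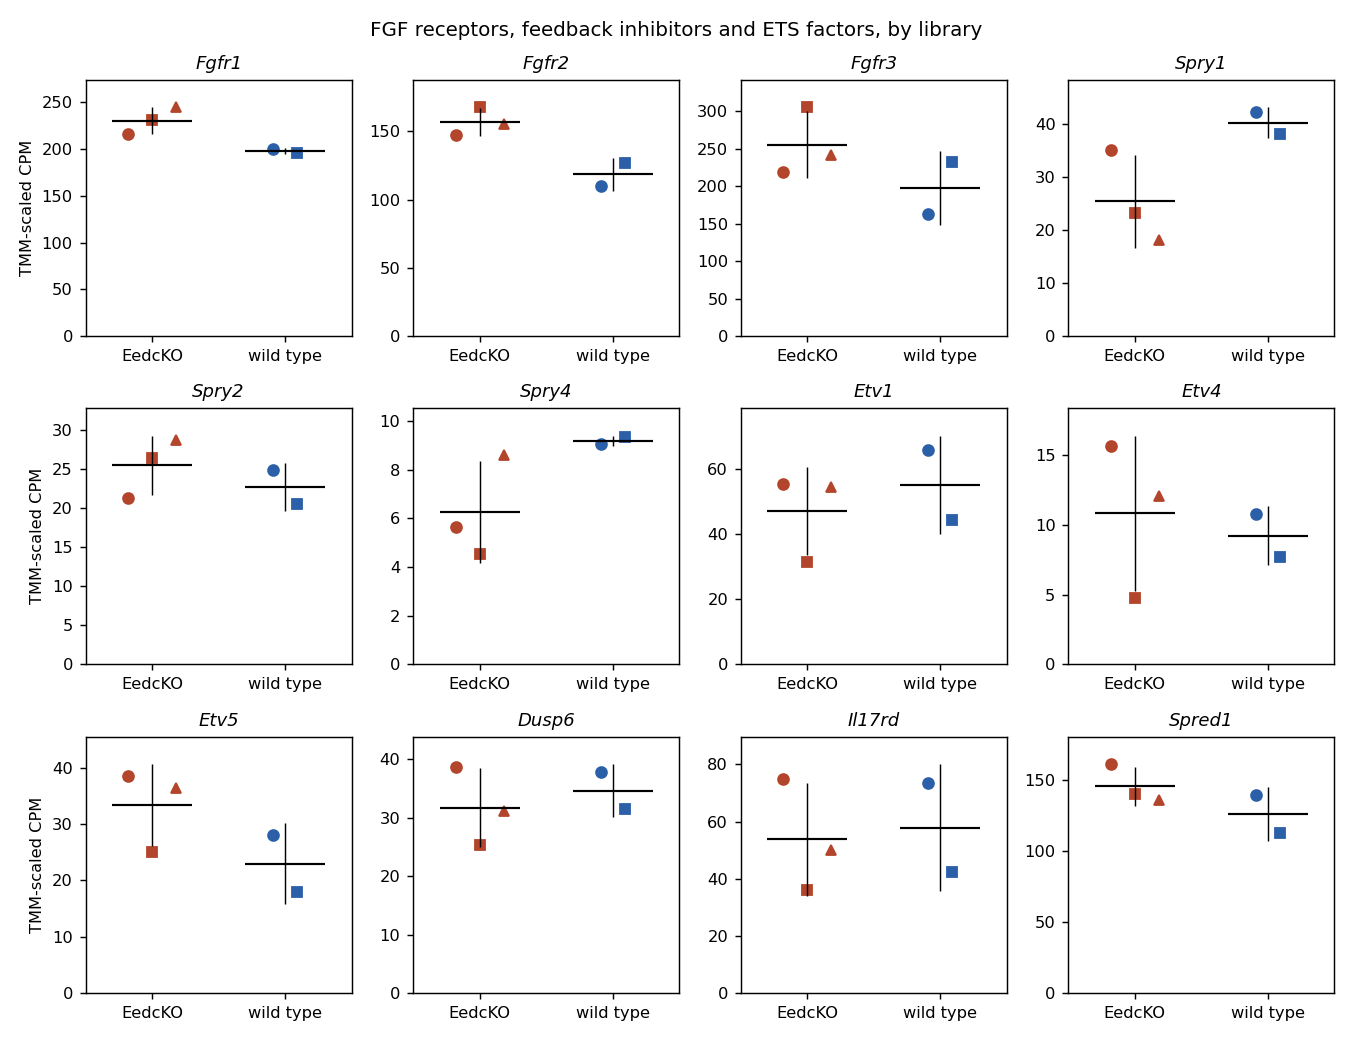
TMM-scaled CPM of 12 receptor, feedback and ETS genes in each library, EedcKO left and wild type right, with circles, squares and triangles for replicates 1, 2 and 3 (the wild-type square is the library labelled wild type 2), bars at the mean and lines of 1 SD. The groups are apart for Fgfr1, Fgfr2, Spry1 and Spry4, and overlap for the others, where Etv1, Etv4, Etv5, Dusp6 and Il17rd are lowest in EedcKO 2 within EedcKO.

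Fgf3, Fgf4 and Fgf15 are neighbours on chromosome 7, so the genes around them were compared, a choice made after the low values of Fgf3 and Fgf15 were seen. Fgf3 (144838083 to 144844436, plus strand, mm10) starts 58.4 kb before Fgf15, and Fgf4, which had no counts, lies between them. Ano1, a calcium-activated chloride channel whose start lies 145 kb before that of Fgf15, had 176, 98 and 101 counts in EedcKO 1, 2 and 3, against 312 in wild type 1 and 359 counts in the library labelled wild type 2. It fell in EedcKO (log2 fold change -1.42, edgeR adjusted p = 0.0321), and the call ended without EedcKO 2 (adjusted p = 0.0974), without EedcKO 3 (0.156), without the library labelled wild type 2 (0.0516), with embryo sex as a covariate (0.189) and on log2 TPM in limma (0.0514 to 0.0765 over 3 fits), within a range over alternatives from 3.06e-05 to 0.189. On the other side of Fgf15 no tested gene passed. LTO1 at 18.6 kb had 665, 639 and 640 counts in EedcKO, against 703 and 706 in wild type (log2 fold change -0.12, edgeR adjusted p = 0.522). Ccnd1, the cyclin of the G1 phase, at 43.4 kb had 1214, 1133 and 1237 counts in EedcKO, against 1282 and 1292 in wild type (log2 fold change -0.11, edgeR adjusted p = 0.617). In both genes the EedcKO libraries were all lower than the wild-type libraries, by little. The other tested genes of the region, Fadd, Ppfia1, Cttn, Shank2 and Tpcn2, had log2 fold changes from -0.43 to 0.24 and overlapping groups, and none passed.

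**Figure D5:**
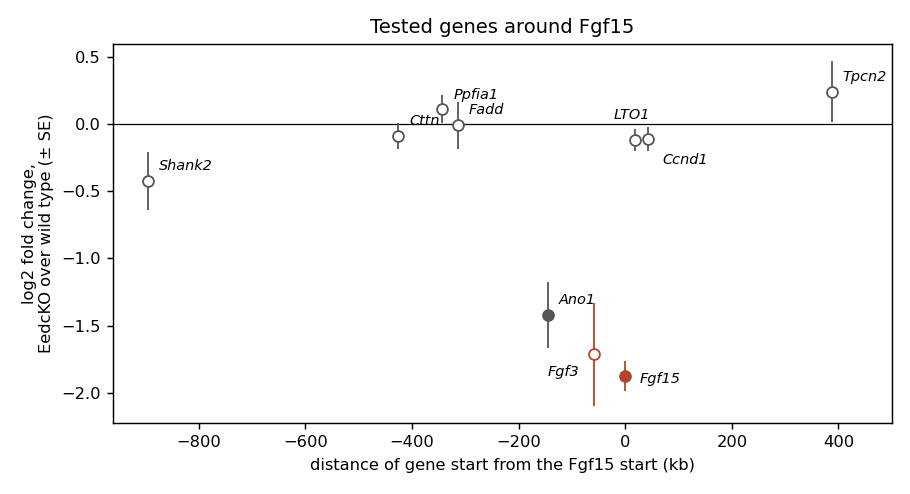
Log2 fold changes, EedcKO over wild type, with standard errors from edgeR, for tested genes that reach within 500 kb of Fgf15, against the distance of each gene start from the Fgf15 start, with filled points past the adjusted threshold. Ano1, Fgf3 and Fgf15 lie between -1.87 and -1.42, while LTO1 and Ccnd1, just right of Fgf15, are at -0.12 and -0.11.

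Promoters dense in CG dinucleotides are the sites where PRC2 is known to gather, so the bases before a RefSeq start of 3 genes are shown, a ligand, a receptor and an inhibitor whose groups did not overlap and for which a sequence was at hand. The sequences are RefSeq promoter windows on GRCm38.p6, the assembly of mm10, read 5′ to 3′ on the strand of the gene, with every CG in capitals. They cover chr7:144838362-144838594 (plus strand) for Fgf3, stopping before an annotated Fgf3 exon that begins in the window, chr7:130266809-130267058 (minus strand) for Fgfr2, and chr3:37639697-37639946 (plus strand) for Spry1, the last of which overlaps an exon of the opposite-strand gene Gm42922. In GENCODE the Spry1 window ends at the start of the gene, while the Fgf3 and Fgfr2 windows lie inside the gene, whose annotated span begins further upstream.
Fgf3: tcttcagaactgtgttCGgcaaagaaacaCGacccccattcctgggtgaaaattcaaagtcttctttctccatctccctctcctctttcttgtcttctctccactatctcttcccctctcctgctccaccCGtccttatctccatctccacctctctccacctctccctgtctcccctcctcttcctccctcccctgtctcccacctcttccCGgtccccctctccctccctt
Fgfr2: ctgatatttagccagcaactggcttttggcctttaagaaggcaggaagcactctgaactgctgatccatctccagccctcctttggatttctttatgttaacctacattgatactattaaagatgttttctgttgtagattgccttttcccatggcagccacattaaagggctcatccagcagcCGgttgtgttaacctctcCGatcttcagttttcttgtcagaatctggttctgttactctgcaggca
Spry1: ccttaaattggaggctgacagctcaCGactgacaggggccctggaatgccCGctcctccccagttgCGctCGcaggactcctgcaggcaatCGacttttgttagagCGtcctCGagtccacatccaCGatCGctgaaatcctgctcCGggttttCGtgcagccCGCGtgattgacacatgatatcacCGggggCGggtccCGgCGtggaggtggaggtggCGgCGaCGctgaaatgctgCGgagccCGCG
The Fgf3 and Fgfr2 windows held 4 and 2 CG, and the Spry1 window 23. Over 32851 windows of 250 bases of all genes the median was 6 CG, and at least as many as in Fgf3, Fgfr2 and Spry1 were found in 62.2%, 81.2% and 13.3% of windows. Windows matched 29 of the 39 genes (38 windows, median 15.5 CG), and those without one were Etv4, Fgf1, Fgf8, Fgf15, Fgf16, Fgf17, Fgf20, Fgfr1, Spry3 and Spry4. The letters CCGGAA, a core of ETS binding sites, searched on both strands with no other motif, were in 4 of the 38 windows and in 12% of all windows. None of the printed sequences holds them, which says only that these letters are not in these windows.

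Beyond the ligands and receptors, 8 of 95 tested genes on lists of pathway partners passed, 5 higher and 3 lower in EedcKO. Of all tested genes 3.20% passed, 1.04% higher and 2.17% lower. The 3 lower genes include Shh, which passed the count filter through the wild-type libraries alone, so the count supports nothing about the lists. None of 27 genes of the RAS to ERK cascade and none of 20 other ERK response genes passed, with medians of 0.00 and -0.01 on the log2 scale. Among 32 genes of heparan sulfate and co-receptors, 2 rose and 1 fell, beside 1.04% and 2.17% of all tested genes. Ndst3, an enzyme that sulfates heparan chains, had 58.7, 73.5 and 63.4 CPM in EedcKO, against 37.4 and 23.3 CPM in wild type (log2 fold change 1.10, edgeR adjusted p = 0.0351). Flrt1, a membrane protein that binds FGF receptors, had 37.5, 47.7 and 44.0 CPM in EedcKO, against 26.5 and 21.7 CPM in wild type (log2 fold change 0.84, edgeR adjusted p = 0.0384). Sulf2, which removes sulfate from heparan chains outside the cell, had 120, 106 and 90.0 CPM in EedcKO, against 167 and 226 CPM in wild type (log2 fold change -0.90, edgeR adjusted p = 0.0322).

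Of 16 patterning factors that act with FGF signals 3 rose (Gli3, Pax6 and Fezf2) and 2 fell (Shh and Nr2f2), beside 1.04% and 2.17% of all tested genes. Shh, the ventralizing signal, had 5, 1 and 3 counts in EedcKO, against 124 and 103 in wild type (log2 fold change -5.19, edgeR adjusted p = 0.00455). Shh passed the count filter through the wild-type libraries alone, so its call is partly set by the filter. Fezf2, a factor of deep-layer projection neurons and their progenitors, had 105, 133 and 134 CPM in EedcKO, against 56.6 and 78.5 CPM in wild type (log2 fold change 0.87, edgeR adjusted p = 0.0396). Gli3, a mediator of Shh signals that acts mainly as a repressor in the dorsal telencephalon, had 269, 258 and 288 CPM in EedcKO, against 171 and 146 CPM in wild type (log2 fold change 0.78, edgeR adjusted p = 0.0152). Pax6, a factor of dorsal progenitors, had a log2 fold change of 0.65 (edgeR adjusted p = 0.0286). Nr2f2, a factor of caudal and ventral forebrain, had 79.0, 101 and 58.1 CPM in EedcKO, against 261 and 244 CPM in wild type (log2 fold change -1.67, edgeR adjusted p = 0.0112). The pathway calls numbered 5 without EedcKO 1 and 3 without EedcKO 2, beside 1.89% and 0.606% of all genes in those fits. Without EedcKO 3 edgeR called 0, where 27 had an unadjusted p under 0.05, beside 13.6% of all genes. DESeq2 on all libraries called 12, beside 4.85% of all genes. Markers of regions that make these ligands are given beside them. Of the tested genes 3 of 8 fell on the hypothalamus and diencephalon list and 3 of 10 on the ventral telencephalon list. On the commissural plate and septum list 0 of 7 fell, and on the isthmus, midbrain and hindbrain list 0 of 3. On the dorsal telencephalon list 5 of 7 rose. Over all tested genes 2.17% fell and 1.04% rose. Of the genes that fell, Otp and Lhx8 passed the count filter only because of the wild-type libraries. Counts on lists this small support nothing about a region. The hypothalamus and diencephalon list (10 of 10 genes in the table) summed to 76.7 to 151 CPM in EedcKO, against 498 and 409 CPM in wild type, and Otp, a defining factor of the hypothalamus, had 0, 1 and 1 counts in EedcKO, against 428 and 85. The ventral telencephalon list (10 of 10) summed to 762 to 1097 CPM in EedcKO, against 1769 and 1375 CPM in wild type, and the commissural plate and septum list (7 of 7) to 402 to 631 CPM, against 1002 and 844 CPM. Nkx2-1 is on both the hypothalamus and commissural plate lists, with 69.0, 1.44 and 1.23 CPM in EedcKO, against 182 and 147 CPM in wild type. Gbx2 is on both the hypothalamus and isthmus lists, so these sums share genes. Isthmus, midbrain and hindbrain markers, another source of Fgf8, Fgf15 and Fgf17, summed over 8 genes to 4.30 to 15.7 CPM in EedcKO, against 23.1 and 30.2 CPM in wild type. Different genes were at 0 in the groups, Pax8 and Wnt1 in every EedcKO library and En1 and En2 in wild type 1. Gbx2 set the separation of the sums, with 0.833, 6.19 and 0.818 CPM in EedcKO, against 16.2 and 16.6 CPM in wild type. The other 7 genes summed to 5.62, 9.49 and 3.48 CPM in EedcKO, against 6.94 and 13.6 CPM in wild type, so wild type 1 lay inside the EedcKO range, and En2 had 5, 15 and 6 counts in EedcKO, against 0 and 11. The part of these regions in the levels of Fgf15, Fgf3, Fgf8 and Fgf17 was not tested.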

How the data were processed

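Polyadenylated RNA of 5 forebrain samples was sequenced with BGISEQ-500 libraries, per the labels' protocols. HISAT2 2.2.0 and the mm10 build are listed, per the submitters' processing notes. No source used here gives the counting tool, its use of strand or the annotation. Whole-number counts per gene (56196 rows) and TPM (24926 rows) were deposited by the authors. The highest count was 6396, so differences of the most abundant genes may be compressed. The 28277 rows without a symbol, with 2.01% to 2.16% of the counts, were left out.

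Counts were tested in R 4.3.3 with edgeR 4.0.16 (filterByExpr by group, TMM, robust glmQLFit, glmQLFTest) and adjusted by Benjamini-Hochberg over 13989 genes at 0.05. The fit was tested on simulated data. A standard error is the log2 fold change over the square root of F. Intervals are at 95% (exact), cover counting error only, and 3 counts are the limit of a count of 0. TPM were used for levels between genes and, as log2 of TPM plus 1 or 0.1, for alternatives in limma 3.58.1. Other alternatives were DESeq2 1.42.0, limma-voom, RLE, library size alone, other filters, embryo sex, the replicate number as a block and each library left out. Fits that leave 1 wild-type library assume that it varies like EedcKO.

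The genes, lists and tests were chosen with earlier results of these data known. Values in every library are given by rule for FGF set genes past the threshold or with a log2 fold change of at least 1 in size, for Fgfr1 to Fgfr4, and for Fgf8, Fgf15 and Fgf17, and, of each other list, for at most 4 genes past the threshold with the largest change. Others were added after their values were seen. Coordinates are 1-based, from the GENCODE annotation of mm10.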

Additional observations from a re-analysis of the deposited data

How the results depend on the processing

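Of 448 values of the 28 tested genes under alternatives, 416 kept the direction and the side of the threshold, 9 passed it anew, 3 no longer passed and 20 changed sign, and 18 of the 28 genes never changed sign. All 3 lost calls were of Fgf15 (adjusted p = 0.0530 with the replicate block, which also ended the call of Ano1 at 0.123), whose log2 fold change stayed between -1.94 and -1.81. Calls among the FGF genes numbered 3 with DESeq2, limma-voom and library size alone, 2 without a count filter, 0 with sex as a covariate, 0 with the replicate block, and 0 to 2 with a library left out. Over all genes the 448 calls became 679 with DESeq2, 280 and 244 on log2 TPM with pseudocounts of 0.1 and 1, 174 without a filter on low TPM, 0 with sex, 0 with the replicate block, and 0 to 1012 with a library left out. Where edgeR called none it gave an unadjusted p under 0.05 for 1611 genes with sex, 2169 with the block and 1886 without EedcKO 3. The 8 pathway calls became 4, 4 and 3 on TPM in the same order, 0 with sex, 0 with the replicate block, and 0 to 15 with a library left out.

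With sex as a covariate, log2 fold changes that changed sign were 0.16 for Dusp6, 0.0085 for Etv1, 0.16 for Fgf7, -0.0181 for Fgf13, 0.37 for Il17rd and -0.0916 for Spry2. Since no wild type was male, that fit sets EedcKO 1 alone against wild type. The replicate block gave -0.0124 for Etv4 and -0.0134 for Fgf2, and library size alone and limma-voom gave -0.0013 and -0.0088 for Fgf2. With a library left out the ranges that crossed 0 were -0.301 to 0.0109 for Dusp6, -0.476 to 0.0674 for Etv1, -0.137 to 0.586 for Etv4, -0.141 to 0.139 for Fgf2, -0.419 to 0.42 for Fgf22, -0.447 to 0.333 for Il17rd and -0.0007 to 0.189 for Spred2. The numbers did not pair the samples (r = 0.0462 across genes between the differences of replicates 1 and 2), and the block left 1 residual degree of freedom. The cause of these shifts was not tested. Fgf8 and the 10 other genes below the filter had too few counts for the main test, and whether more depth would change that was not tested.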

Other observations

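Fgf6 and Fgf23 lie beside the cyclin gene Ccnd2 on chromosome 6, as Fgf3, Fgf4 and Fgf15 lie beside Ccnd1 on chromosome 7. Both ligands had at most 2 counts in any library. Ccnd2 itself had 3546, 3710 and 3854 counts in EedcKO, against 2786 and 2853 counts in wild type. The groups did not overlap, and the log2 fold change was 0.39 (edgeR adjusted p = 0.0903). Rad51ap1, a DNA repair gene of the same region, had 303, 271 and 267 counts in EedcKO, against 231 and 188 in wild type (log2 fold change 0.42, edgeR adjusted p = 0.163). Kcna1, a potassium channel of that region, had 27, 63 and 40 counts in EedcKO, against 8 and 3 in wild type, and rose (log2 fold change 2.94, edgeR adjusted p = 0.0394). Kcna1 passed the count filter through the EedcKO libraries alone, so its call is partly set by the filter. The other 5 tested neighbours, Kcna6, Ndufa9, D6Wsu163e, Tigar and Parp11, had log2 fold changes from -0.10 to 0.02 and none passed, and of these Parp11 alone had groups that did not overlap, with EedcKO lower.

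Striated muscle markers summed over 11 genes to 6.81 to 14.2 CPM in EedcKO, against 10.5 CPM in wild type 1 but 81.1 CPM in the library labelled wild type 2. Retina and eye markers summed over 6 genes to 7.16 to 10.8 CPM in EedcKO, against 7.36 CPM in wild type 1 and 21.1 CPM in the library labelled wild type 2. Fgfr4, the receptor of the muscle lineage, had its highest count, 16, in that library. The part of muscle in that count was not tested.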
